A study of Mus musculus with 3 samples.

Results

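The costimulatory molecules examined here were *Cd80*, *Cd86*, *Icosl*, *Cd40* and *Cd83*, 5 of the 32285 genes counted in each library. They were chosen by name, as surface molecules through which dendritic cells costimulate T cells or are licensed by them, and their UMI counts were followed over the clusters of tumour cDC1s (type 1 conventional dendritic cells). The cells were sorted on day 5 from MCA205 LA-OVA tumours, grown from a mouse fibrosarcoma line that carries the model antigen OVA, and profiled by droplet scRNAseq, in which each captured transcript carries a unique molecular identifier (UMI). The sort took live CD45+ lineage-negative CD11c+ MHCII+ CD88- cells, and among these the XCR1+ cDC1s, the Sirpa+ cDC2s and the CD135+ CD43+ pre-cDCs, so the share of each type in a library was set at the sort. There was 1 library for each of 3 genotypes: WT, sGSN-/- (no secreted gelsolin, an actin-binding plasma protein) and sGSN-/-Clec9a-/- (lacking in addition DNGR-1, the receptor for dead cells encoded by *Clec9a*). The strains had been backcrossed to C57BL/6J, and the mice of the study were 6 to 20 weeks old. Each library came from the pooled tumours of many animals of both sexes, and no genotype had a second library. The 3 libraries held 176578136, 109270958 and 113411930 UMIs, and 5806 of their barcodes were assigned by the authors to cDC1 clusters.

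As background, a T cell that meets its antigen on a dendritic cell needs a further signal to expand. CD80 and CD86 give it by binding CD28, and the same ligands are bound by the inhibitory receptor CTLA-4, while ICOS ligand engages ICOS on T cells that are already activated. CD40 works in the other direction, receiving CD40 ligand from helper T cells, and CD83 is a surface marker of mature dendritic cells that keeps MHC class II and CD86 at the cell surface by opposing the ubiquitin ligase MARCH1. Resting dendritic cells carry little of most of these molecules and display more after stimulation, which is the question asked here of the cDC1 states in the tumour.

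The authors' grouping of the clusters was kept: resting cDC1s are clusters 5, 2, 3, 6 and 0 (3499 cells), early cDC1s are clusters 4 and 1 (1332 cells), and activated cDC1s are clusters 7 (422 cells), 8 (255), 9 (162) and 10 (76). The study described cluster 8 by *Ccr7* and *Il12b* and cluster 10 by *Cxcl9*, and held that clusters 7 and 9 may be transitional. It used *Cd40* and *Cd274* to recognise activated cells, so high levels of these genes in the activated clusters are in part what their name means. Cluster 11 (60 cells, a median of 2348 UMIs per cell) was left out of the tests. Levels are CPM, the UMIs of a gene relative to all UMIs of the cells summed, given in the order WT, sGSN-/- and sGSN-/-Clec9a-/- and then as mean ± SD over the 3 libraries (n = 3). The SD therefore also holds any difference between genotypes. The sums behind these levels held 47957597 UMIs for resting cDC1s, 17476869 for early cDC1s, 6146416 for cluster 7, 2817896 for cluster 8, 2271694 for cluster 9 and 891318 for cluster 10, so that the levels of cluster 10 are the least precise.

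The targeted genes were looked at first. Over all cDC1s *Clec9a* was counted at 168 CPM in the WT library, 168 CPM in the sGSN-/- library and 0.0931 CPM (2 UMIs) in the sGSN-/-Clec9a-/- library, as the labels say. *Gsn* was counted at 152, 169 and 167 CPM, but the matrices give 1 count per gene and cannot separate the transcript of secreted gelsolin, so this does not check the sGSN-/- label. WT and sGSN-/- had 26 barcodes in common, WT and sGSN-/-Clec9a-/- 28, and the sGSN-/- and sGSN-/-Clec9a-/- libraries 27. Among cDC1s these were 2, 2 and 3 barcodes. The label of the cells was checked on 9 cDC1 markers (*Xcr1*, *Clec9a*, *Irf8*, *Batf3*, *Cadm1*, *Itgae*, *Wdfy4*, *Tlr3* and *Naaa*), all of which were detected in resting, early and each activated cluster. Their summed level was 4506, 4468 and 4518 CPM in resting cDC1s, 4286, 4809 and 4477 CPM in cluster 9, and in cluster 10 it was 3412, 3464 and 3270.1 CPM. It was lowest in cluster 8, at 1655, 1579.8 and 1846 CPM, where *Irf8* was the most abundant of them.

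Each activated cluster was compared with resting cDC1s over 8536 genes, and all 5 members passed the filter on low counts. The comparisons share the resting cDC1s, so they are not independent of each other. As the clusters had been called on these same cells, an adjusted p is no test of the clusters themselves. It sets the size of a change against the spread between libraries in the fit, so a small p can go with unlike libraries. In cluster 8, 5 of the 5 members were higher than in resting cDC1s, where 25.7% of all genes tested were higher. In cluster 10, 4 of 5 were higher against 8.53% of all genes, in cluster 7, 3 of 5 against 11.8%, and in cluster 9, 3 of 5 against 3.99%. Early cDC1s had 3 of 5 members higher, against 16.1% of all genes. No member was called lower in any of these comparisons. The counts of clusters 7, 8, 9 and 10 include *Cd40*, which the study used to recognise activated cells, as do the medians below. Its calls in these clusters are therefore not read as support. The median log2 fold change of the members was 1.53 in cluster 8, 0.80 in cluster 10, 0.73 in cluster 7, 0.75 in cluster 9 and 0.43 in early cDC1s. Over all genes tested it was -0.054, -0.035, -0.019, -0.023 and -0.013, respectively. The shares of all genes lower were 24.0% in cluster 8, 6.53% in cluster 10, 6.10% in cluster 7, 1.32% in cluster 9 and 18.1% in early cDC1s. Another scaling moved all genes, members included. Of the genes called in cluster 8, 51.7% were higher, and 37.1% when library sizes were used without TMM factors, which moved the median of all genes from -0.054 to -0.24 and the log2 fold change of *Cd80* from 4.41 to 4.21 and of *Cd83* from 1.23 to 1.03. In cluster 7 the share was 65.8%, and 45.4% without TMM factors, with the median moving from -0.019 to -0.12, and in cluster 10 it was 56.7%, and 68.0% with DESeq2.

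*Cd80* (ENSMUSG00000075122, chromosome 16, 38455561 to 38496335 of GRCm38, plus strand, 3 annotated transcripts) encodes one of the ligands of CD28 and CTLA-4. In resting cDC1s it was counted at 11.3, 12.9 and 9.12 CPM (11.1 ± 1.92 CPM). In cluster 8 it reached 195, 216 and 212 CPM (207 ± 11.1 CPM), so each library of cluster 8 lay far above each resting one, and the libraries of cluster 8 were close to each other. Cluster 10 came next with 85.0, 58.0 and 43.5 CPM (62.2 ± 21.1 CPM), on 24, 18 and 13 UMIs, with the WT library highest and still below each library of cluster 8. Cluster 9 had 30.7, 30.6 and 17.8 CPM (26.4 ± 7.46 CPM) and cluster 7 18.4, 18.9 and 14.8 CPM (17.4 ± 2.25 CPM), both above the resting libraries without overlap. The log2 fold change against resting cDC1s was 4.41 (SE 0.126, adjusted p = 7.5e-20) in cluster 8, which is 21.2-fold, and 2.45 (SE 0.264, adjusted p = 1.2e-07) in cluster 10, by edgeR's quasi-likelihood test with adjustment after Benjamini-Hochberg. By the same edgeR quasi-likelihood test with adjustment after Benjamini-Hochberg it was 1.28 (SE 0.233, adjusted p = 0.0006) in cluster 9 and 0.76 (SE 0.181, adjusted p = 0.0033) in cluster 7. *Cd80* was higher in 3 of 3 libraries in each of the 4 clusters. Without the WT library, and so with fewer samples, the calls in clusters 7 and 9 were lost at similar sizes. In cluster 7 the log2 fold change was then 0.73 (edgeR's quasi-likelihood test, Benjamini-Hochberg adjusted p = 0.056, 0.00059 to 0.056 over the alternatives) and in cluster 9 1.13 (adjusted p = 0.093), and with cells thinned to the same depth cluster 9 gave 1.16 (adjusted p = 0.2, 2.5e-07 to 0.2 over the alternatives).

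Over the 11 clusters from 0 to 10, *Cd80* was highest in cluster 8, followed by clusters 10, 4, 9, 1, 6, 7, 5, 0, 3 and 2. The libraries of neighbours in this order did not overlap between clusters 8 and 10, between 10 and 4 and between 0 and 3, and overlapped elsewhere. Within the resting group the level ran from 5.04 ± 0.817 CPM in cluster 2 to 19.5 ± 8.46 CPM in cluster 6, and the early clusters 4 and 1 stood at 26.6 ± 1.55 CPM and 21.5 ± 4.67 CPM. The libraries of early cluster 1 overlapped with those of the activated clusters 9 and 7. In cluster 11 it was counted with 3, 0 and 4 UMIs.

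*Cd86* (ENSMUSG00000022901, chromosome 16, 36603869 to 36666081, minus strand, 4 transcripts) encodes the other ligand of CD28 and CTLA-4. Unlike *Cd80* it was already well counted at rest, at 175, 165 and 159.6 CPM (167 ± 7.67 CPM). Cluster 8 had 443, 416 and 406 CPM (421 ± 19.2 CPM), cluster 10 287, 306 and 285 CPM (293 ± 11.8 CPM) and cluster 7 244, 271 and 259.9 CPM (258 ± 13.8 CPM). These 3 clusters did not overlap with each other or with the resting libraries. In cluster 9 the libraries were divided, with 172, 247 and 152 CPM (190.4 ± 49.9 CPM). Only the sGSN-/- library of cluster 9 was clearly above the resting level, and the other 2 were below the resting sum of their own library. The log2 fold change against resting cDC1s was 1.53 (SE 0.107, adjusted p = 3.4e-12) in cluster 8, 0.80 (SE 0.127, adjusted p = 5.3e-05) in cluster 10 and 0.73 (SE 0.103, adjusted p = 4.7e-06) in cluster 7 by edgeR's quasi-likelihood test with adjustment after Benjamini-Hochberg, each in 3 of 3 libraries. That of cluster 10 was 0.58 with thinned cells (edgeR's quasi-likelihood test, Benjamini-Hochberg adjusted p = 0.061, 4.4e-12 to 0.061 over the alternatives). In cluster 9 it was 0.18 (SE 0.117, adjusted p = 0.49) by the same edgeR quasi-likelihood test with adjustment after Benjamini-Hochberg, higher in 1 of 3 libraries, and did not pass. Without the sGSN-/- library it was -0.026 (adjusted p = 0.98), and with cluster labels assigned without the members 0.41 (adjusted p = 0.013, 0.013 to 0.98 over the alternatives of edgeR's quasi-likelihood test, Benjamini-Hochberg adjusted).

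The order of *Cd86* over the clusters was 8, 10, 7, 9, 0, 6, 2, 3, 1, 4 and 5. Neighbours did not overlap between clusters 8 and 10 and between 10 and 7, and from cluster 7 downwards each overlapped with the next. The lower clusters were close together, with 186 ± 11.2 CPM in cluster 0 and 139 ± 5.57 CPM in cluster 5.

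*Icosl* (ENSMUSG00000000732, chromosome 10, 78069302 to 78083913, plus strand, 4 transcripts) encodes the ligand of ICOS. It changed little between most clusters, and went from 25.4, 26.8 and 25.6 CPM (25.9 ± 0.795 CPM) at rest to 36.8, 66.9 and 48.5 CPM (50.7 ± 15.2 CPM) in cluster 8. The libraries of cluster 8 were all above rest but spread widely, the sGSN-/- library being the highest and the WT library the lowest. Cluster 9 had 40.3, 36.0 and 31.1 CPM (35.8 ± 4.63 CPM), cluster 7 26.8, 27.0 and 33.1 CPM (28.9 ± 3.57 CPM) and cluster 10 24.8, 25.8 and 33.5 CPM (28.0 ± 4.75 CPM), the last on 7, 8 and 10 UMIs. Clusters 7 and 10 overlapped with the resting libraries. Cluster 8 was the only activated cluster in which *Icosl* passed, with a log2 fold change of 1.20 (SE 0.166, adjusted p = 1e-06) and 3 of 3 libraries higher (edgeR's quasi-likelihood test with adjustment after Benjamini-Hochberg). By the same edgeR quasi-likelihood test, with adjustment after Benjamini-Hochberg, it was 0.50 (SE 0.197, adjusted p = 0.17) in cluster 9, with 3 of 3 libraries higher, 0.25 (SE 0.150, adjusted p = 0.28) in cluster 7, with 3 of 3, and 0.10 (SE 0.317, adjusted p = 0.89) in cluster 10, with 1 of 3. The value of cluster 10 was -0.055 without the sGSN-/-Clec9a-/- library, and with labels assigned without the members cluster 9 passed, at 0.64 (edgeR's quasi-likelihood test, Benjamini-Hochberg adjusted p = 0.04, 0.04 to 0.57 over the alternatives).

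The order of *Icosl* was 8, 4, 6, 9, 3, 1, 7, 10, 5, 2 and 0, and only between clusters 2 and 0 did neighbours not overlap. The early cluster 4 (42.0 ± 2.42 CPM) and the resting cluster 6 (37.8 ± 4.67 CPM) stood above 3 of the 4 activated clusters in this order, although both had library ranges that overlapped with cluster 9, and that of cluster 6 overlapped with clusters 7 and 10 as well. *Icosl* was lowest in cluster 0, at 19.3 ± 3.18 CPM.

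*Cd40* (ENSMUSG00000017652, chromosome 2, 165055627 to 165072948, plus strand, 7 transcripts) encodes the receptor for CD40 ligand and had the largest changes of the members in all 4 activated clusters. At rest it was counted at 6.72, 8.55 and 6.501 CPM (7.26 ± 1.12 CPM). Cluster 8 had 329, 195 and 206 CPM and cluster 10 209, 219 and 238 CPM. The 2 clusters overlapped, since the WT library of cluster 8 was far above both of the others, which were below each library of cluster 10. Cluster 7 followed with 68.4, 92.8 and 76.4 CPM (79.2 ± 12.4 CPM) and cluster 9 with 35.5, 88.3 and 50.3 CPM (58.1 ± 27.2 CPM), each library being above each resting one. The log2 fold change against resting cDC1s was 5.28 (SE 0.186, adjusted p = 2.6e-18) in cluster 8 and 4.93 (SE 0.252, adjusted p = 8.7e-14) in cluster 10 by edgeR's quasi-likelihood test with adjustment after Benjamini-Hochberg, which is 38.8-fold and 30.4-fold. By the same edgeR quasi-likelihood test with adjustment after Benjamini-Hochberg it was 3.56 (SE 0.192, adjusted p = 6.8e-14) in cluster 7 and 2.91 (SE 0.280, adjusted p = 3.1e-08) in cluster 9. In all 4 clusters *Cd40* was higher in 3 of 3 libraries. These calls held under all 12 alternatives. As the study recognised activated cells by *Cd40* as well, they are a description of these clusters and are not read as support.

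The order of *Cd40* was 8, 10, 7, 9, 4, 5, 1, 2, 6, 3 and 0. Neighbours did not overlap between clusters 10 and 7, 9 and 4, 4 and 5, and 5 and 1. Clusters 8 and 10 could not be put in order, and neither could clusters 7 and 9. Below the activated clusters, early cluster 4 (24.5 ± 3.02 CPM) and resting cluster 5 (16.4 ± 2.12 CPM) stood apart from the other clusters, whose means lay between 5.13 and 7.76 CPM.

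*Cd83* (ENSMUSG00000015396, chromosome 13, 43784775 to 43803132, plus strand, 2 transcripts) was abundant in every cluster. Resting cDC1s had 724, 701 and 741 CPM (722 ± 20.1 CPM) and cluster 8 1384, 1411 and 1644 CPM (1479.8 ± 143 CPM). Cluster 9 had 1174, 1332 and 1115 CPM (1207 ± 112 CPM) and cluster 10 1297, 1241 and 773 CPM (1104 ± 288 CPM). In cluster 10 the sGSN-/-Clec9a-/- library was far below the other 2 and only a little above the resting level. Cluster 7 had 865, 788 and 784 CPM (812 ± 45.6 CPM), above rest in each library by a small margin. The log2 fold change was 1.23 (SE 0.119, adjusted p = 2.4e-09) in cluster 8, 0.75 (SE 0.119, adjusted p = 0.00011) in cluster 9 and 0.58 (SE 0.124, adjusted p = 0.0014) in cluster 10 by edgeR's quasi-likelihood test with adjustment after Benjamini-Hochberg, each with 3 of 3 libraries higher. In cluster 7 it was 0.27 (SE 0.117, adjusted p = 0.12) by the same edgeR quasi-likelihood test with adjustment after Benjamini-Hochberg, also with 3 of 3 libraries higher, and did not pass. Without the sGSN-/- library cluster 10 gave 0.44 (edgeR's quasi-likelihood test, Benjamini-Hochberg adjusted p = 0.11, 4.9e-06 to 0.11 over the alternatives). Cluster 7 passed without the sGSN-/-Clec9a-/- library, at 0.32 (adjusted p = 0.048), and in a fit of only the 2 groups compared, at 0.28 (adjusted p = 0.011, 0.011 to 0.41 over the alternatives of edgeR's quasi-likelihood test, Benjamini-Hochberg adjusted).

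The order of *Cd83* was 8, 9, 10, 6, 7, 3, 0, 1, 4, 5 and 2, with no overlap between clusters 8 and 9, 6 and 7, and 4 and 5. The resting group was not uniform, since cluster 6 stood at 1094 ± 76.3 CPM, within the range of cluster 10, and cluster 2 at 575 ± 46.0 CPM.

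**Figure D1:**
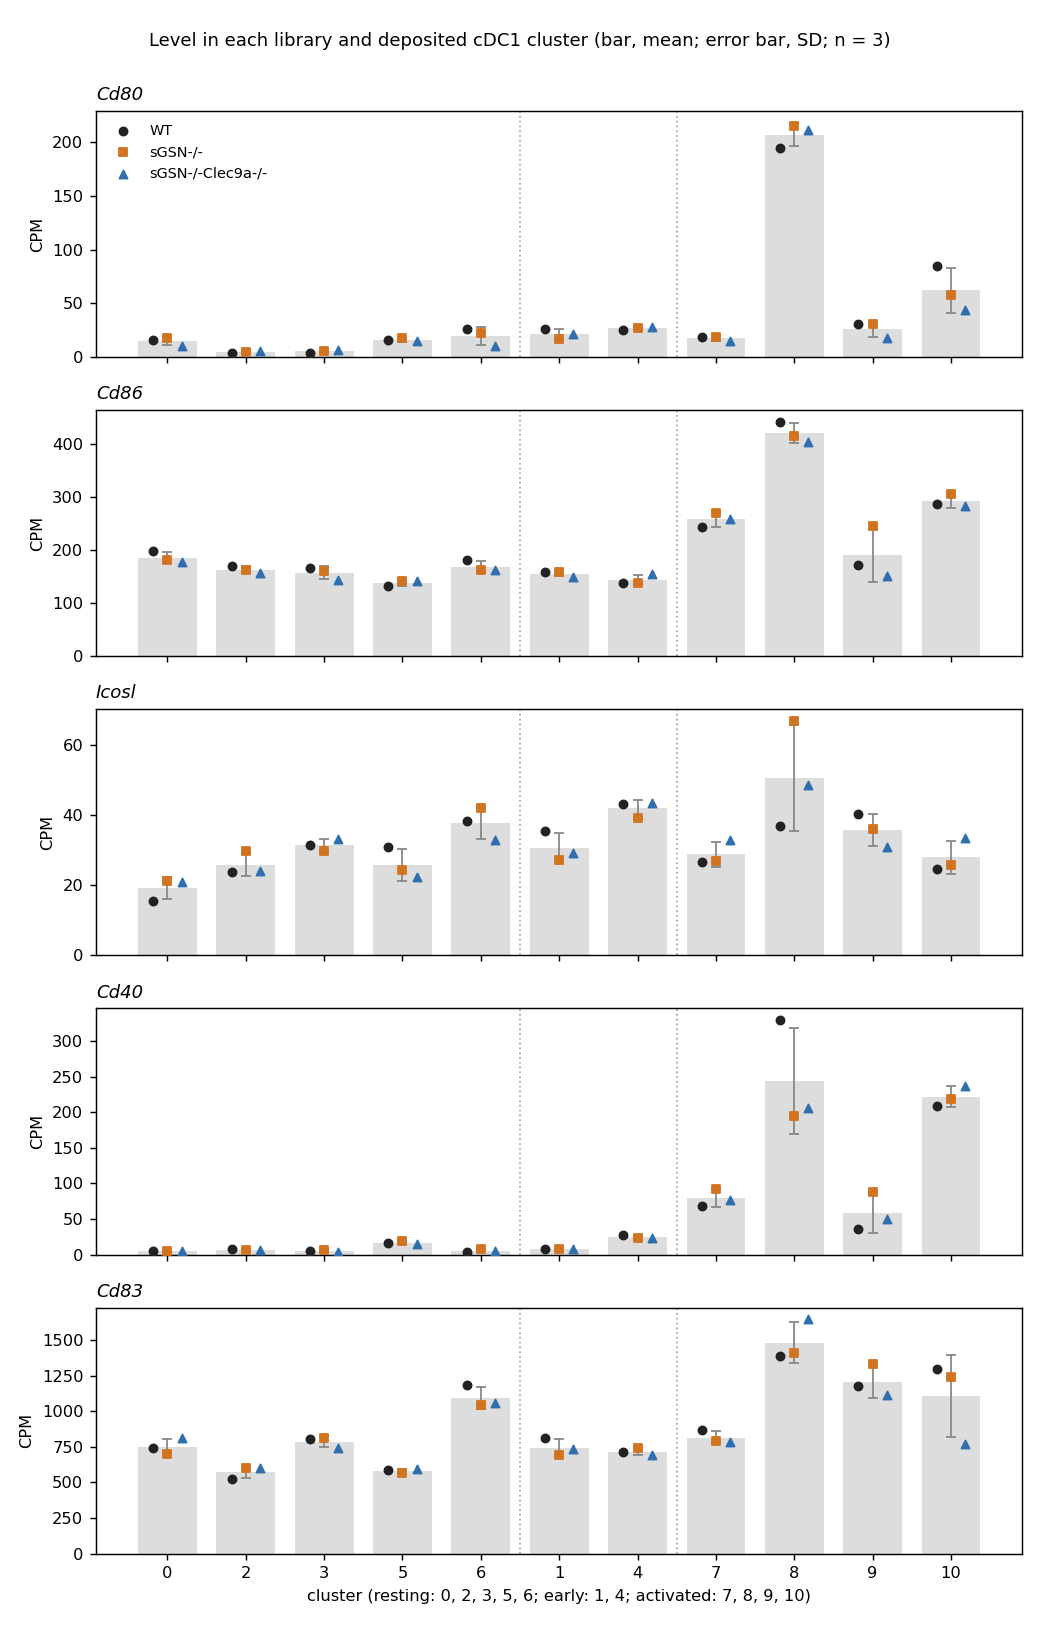
Level of each gene (CPM, linear axis from 0) in each deposited cDC1 cluster, with points for the WT, sGSN-/- and sGSN-/-Clec9a-/- libraries, grey bars for their mean and error bars for the SD (n = 3). *Cd80* in cluster 8 lies between 195 and 216 CPM, above the libraries of every other cluster, whereas *Icosl* overlaps between most clusters.

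**Figure D2:**
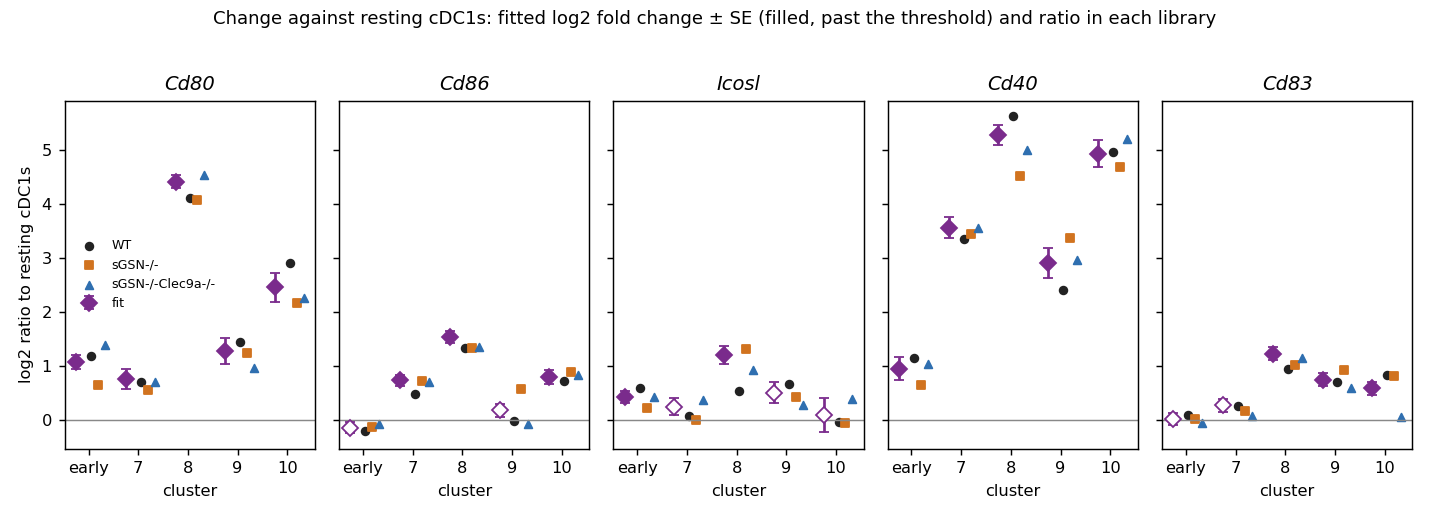
Log2 ratio to resting cDC1s of early cDC1s and of clusters 7, 8, 9 and 10, as the fitted log2 fold change with its SE (diamonds, filled where the adjusted p passed 0.05) and as the ratio of CPM in each library (points). *Cd40* shows the largest fitted change in clusters 7 to 10, and *Icosl* passes only in cluster 8 and early cDC1s.

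Summed over their clusters, early cDC1s, so named in the study, carried more of 3 members than resting cDC1s. *Cd80* was counted at 25.6, 20.4 and 23.9 CPM (23.3 ± 2.65 CPM), *Icosl* at 38.4, 31.5 and 34.5 CPM (34.8 ± 3.48 CPM) and *Cd40* at 14.98, 13.3 and 13.3 CPM (13.9 ± 0.975 CPM). For these genes no early sum of a library overlapped with a resting one, but some single clusters did overlap. *Cd40* was at 24.5 ± 3.02 CPM in early cluster 4 and 7.76 ± 0.514 CPM in early cluster 1, below resting cluster 5 (16.4 ± 2.12 CPM). *Icosl* was at 42.0 ± 2.42 CPM and 30.7 ± 4.34 CPM, beside 37.8 ± 4.67 CPM in resting cluster 6. *Cd80* was at 26.6 ± 1.55 CPM and 21.5 ± 4.67 CPM, beside 19.5 ± 8.46 CPM in cluster 6. The log2 fold changes were 1.07 (SE 0.128, adjusted p = 3.3e-07) for *Cd80*, 0.43 (SE 0.114, adjusted p = 0.005) for *Icosl* and 0.95 (SE 0.213, adjusted p = 0.0011) for *Cd40*, each higher in 3 of 3 libraries (edgeR's quasi-likelihood test with adjustment after Benjamini-Hochberg). The call of *Icosl* was lost without the WT library, at 0.33 (edgeR's quasi-likelihood test, Benjamini-Hochberg adjusted p = 0.096, 0.0013 to 0.28 over the alternatives), and with thinned cells, at 0.24 (adjusted p = 0.28). *Cd86* (151, 152 and 152 CPM) was lower in 3 of 3 libraries with a log2 fold change of -0.14 (SE 0.101, adjusted p = 0.31) that did not pass, and *Cd83* (775, 709 and 719 CPM) had 0.021 (SE 0.116, adjusted p = 0.92), with 2 of 3 libraries higher, by the same edgeR quasi-likelihood test with adjustment after Benjamini-Hochberg. Of the cells of this group 5.18% were among the barcodes with the highest doublet scores, against 0.286% of resting cDC1s, and the 6 cDC2 markers summed to 161, 131 and 157 CPM in early and 28.1, 25.7 and 25.2 CPM in resting cDC1s, led by *Cd209a* in the early group. Leaving the scored doublets out changed no call of a member, and the part of the cDC2 markers in the result was not tested.

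Clusters 8 and 10, which had the most *Cd40*, were compared directly. Cluster 8 was higher in 4 of the 5 members, against 15.7% of all genes tested. The median log2 fold change was 0.74 for the members and 0.022 for all genes, and of all genes called 55.7% were higher in cluster 8, or 37.2% without TMM factors, which moved the median of all genes to -0.18. *Cd80* had the largest difference, 1.96 (SE 0.195, adjusted p = 1.9e-08), followed by *Icosl* with 1.10 (SE 0.311, adjusted p = 0.0088), both higher in 3 of 3 libraries (edgeR's quasi-likelihood test with adjustment after Benjamini-Hochberg). In the same edgeR quasi-likelihood test with adjustment after Benjamini-Hochberg *Cd86* differed by 0.74 (SE 0.129, adjusted p = 8.1e-05) and *Cd83* by 0.64 (SE 0.126, adjusted p = 0.0003), again in 3 of 3 libraries. *Cd40* did not pass, at 0.35 (SE 0.205, adjusted p = 0.22) by edgeR's quasi-likelihood test with adjustment after Benjamini-Hochberg, and was higher in cluster 8 in 1 of 3 libraries, the WT one. With labels assigned without the members it was 0.70 (edgeR's quasi-likelihood test, Benjamini-Hochberg adjusted p = 0.0093, 0.0093 to 0.99 over the alternatives). The difference in *Icosl* rested on the sGSN-/- library, without which it was 0.69 (adjusted p = 0.21), and it also did not pass with thinned cells, at 1.39 (adjusted p = 0.054, 0.0047 to 0.21 over the alternatives of edgeR's quasi-likelihood test, Benjamini-Hochberg adjusted). That of *Cd83* was 0.41 without the sGSN-/-Clec9a-/- library and 0.42 without TMM factors.

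Each of these clusters was also compared with one that had less *Cd40*, cluster 8 with cluster 9 and cluster 10 with cluster 7. The direction of *Cd40* was set by this choice of pairs. Its calls here are therefore not read as support, although the counts of members and their medians include it. Cluster 8 was higher than cluster 9 in 5 of 5 members, against 19.9% of all genes, with a median log2 fold change of 1.35 against -0.021. Of all genes called here 54.0% were higher in cluster 8, or 38.9% without TMM factors, where the median of all genes was -0.20. The log2 fold change was 3.13 (SE 0.1799, adjusted p = 4.2e-13) for *Cd80*, 2.37 (SE 0.220, adjusted p = 2.6e-09) for *Cd40* and 1.35 (SE 0.121, adjusted p = 1.4e-09) for *Cd86*, each higher in 3 of 3 libraries (edgeR's quasi-likelihood test with adjustment after Benjamini-Hochberg). The other 2 members differed less and depended on the setting. *Cd83* had 0.48 (SE 0.121, adjusted p = 0.0025) with 3 of 3 libraries higher, and 0.29 (adjusted p = 0.062, 0.00011 to 0.062 over the alternatives) without TMM factors, by edgeR's quasi-likelihood test with adjustment after Benjamini-Hochberg. *Icosl* had 0.70 (SE 0.221, adjusted p = 0.014) with 2 of 3 libraries higher by edgeR's quasi-likelihood test with adjustment after Benjamini-Hochberg. Without the sGSN-/- library it was 0.32 (adjusted p = 0.4), without the sGSN-/-Clec9a-/- library 0.67 (adjusted p = 0.061) and without the WT library 1.08 (adjusted p = 0.0041), and over the alternatives of edgeR's quasi-likelihood test the Benjamini-Hochberg adjusted p ran from 0.0041 to 0.4.

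Cluster 10 was higher than cluster 7 in 2 of 5 members, against 3.77% of all genes, with a median log2 fold change of 0.31 against -0.058. This count includes *Cd40*, whose direction was set by the choice of cluster 7, so it is not read against the background. Of all genes called 38.4% were higher in cluster 10, or 55.3% without TMM factors and 52.8% with DESeq2, and without TMM factors the median of all genes was 0.058. *Cd80* had a log2 fold change of 1.70 (SE 0.272, adjusted p = 8.3e-05) and *Cd40* of 1.37 (SE 0.219, adjusted p = 7.8e-05), both higher in 3 of 3 libraries (edgeR's quasi-likelihood test with adjustment after Benjamini-Hochberg). *Cd83* at 0.31 (SE 0.125, adjusted p = 0.12), *Cd86* at 0.062 (SE 0.129, adjusted p = 0.84) and *Icosl* at -0.15 (SE 0.327, adjusted p = 0.85) did not pass edgeR's quasi-likelihood test with adjustment after Benjamini-Hochberg, with 2, 3 and 1 of 3 libraries higher. *Cd83* passed without the sGSN-/-Clec9a-/- library, at 0.49 (edgeR's quasi-likelihood test, Benjamini-Hochberg adjusted p = 0.0083), without TMM factors, at 0.44 (adjusted p = 0.028), and with DESeq2, at 0.36 (adjusted p = 0.03, 0.0083 to 0.64 over the alternatives). *Cd80* did not pass with thinned cells, at 1.19 (edgeR's quasi-likelihood test, Benjamini-Hochberg adjusted p = 0.18, 1.9e-09 to 0.18 over the alternatives).

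The share of cells with at least 1 UMI depends on depth, so it was read after each cell had been thinned to 3900 UMIs. Shallower cells were left out, 105 of 3499 resting cells, 51 of 1332 early cells, and 11 of 422, 57 of 255, 4 of 162 and 6 of 76 cells of clusters 7, 8, 9 and 10. NK cell-like cells, rebuilt from the same libraries, were read beside them, with a median of 6922.5 UMIs per cell before thinning against 13930 in resting cDC1s, 12521.5 in early cDC1s and 14253.5, 10867, 14033 and 11132.5 in clusters 7, 8, 9 and 10. Intervals are exact Clopper-Pearson 95% intervals for counting error only. *Cd80* was seen in 11.7% of cells unthinned and 4.24% (3.59 to 4.98) thinned in the resting group, in 76.9% of cells unthinned and 52.5% (45.3 to 59.6) thinned in cluster 8 and in 44.7% of cells unthinned and 18.6% (10.3 to 29.7) thinned in cluster 10. In NK cell-like cells it was seen in 2.03% unthinned and 0.597% thinned, below every group of cDC1s. *Cd40* was seen in 7.66% of cells unthinned and 2.30% (1.82 to 2.86) thinned in the resting group, 45.5% of cells unthinned and 23.6% (19.6 to 28.0) thinned in cluster 7, 65.1% of cells unthinned and 46.0% (38.9 to 53.2) thinned in cluster 8, 32.7% of cells unthinned and 16.5% (11.04 to 23.2) thinned in cluster 9 and 76.3% of cells unthinned and 55.7% (43.3 to 67.6) thinned in cluster 10, against 1.82% and 0.737% in NK cell-like cells. The thinned intervals of clusters 8 and 10 overlapped.

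Most cDC1s held *Cd83*, with 96.5% of cells unthinned and 85.8% (84.6 to 87.0) thinned in the resting group and 91.4% of cells unthinned and 97.5% (94.2 to 99.2) thinned in cluster 8, against 18.2% and 11.3% in NK cell-like cells. *Cd86* was seen in 82.6% of cells unthinned and 46.8% (45.1 to 48.5) thinned in the resting group and 74.9% of cells unthinned and 67.7% (60.7 to 74.1) thinned in cluster 8, against 8.73% and 4.18%. The unthinned shares of *Cd83* and *Cd86* were lower in cluster 8 than at rest although the levels were higher, whereas the thinned shares, which also leave out 57 of 255 cells of cluster 8 and 105 of 3499 resting cells, were higher in cluster 8. *Icosl* was seen in 27.8% of cells unthinned and 10.05% (9.06 to 11.1) thinned in the resting group, 29.4% of cells unthinned and 20.2% (14.8 to 26.5) thinned in cluster 8 and 27.6% of cells unthinned and 11.4% (5.07 to 21.3) thinned in cluster 10, against 5.99% and 2.21%. The thinned intervals of *Icosl* in clusters 7, 9 and 10 and in early cDC1s (a share of 11.7%) overlapped with that of the resting group, although its level was called higher in early cDC1s. In T cell-like cells (365 barcodes, a median of 7286 UMIs) the thinned shares were 5.0% for *Cd80*, 22.3% for *Cd86*, 4.67% for *Icosl*, 3.0% for *Cd40* and 25.7% for *Cd83*, and unthinned 14.0%, 35.3%, 14.0%, 9.04% and 33.7%. Of the T cell-like barcodes 19.5% were scored as doublets, and without these the unthinned shares were 5.44% for *Cd80* and 3.06% for *Cd40*. Without scored doublets 3572 of the 3690 NK cell-like cells were left, and their *Cd80* UMIs fell from 107 to 31. Their unthinned shares were then 0.868% for *Cd80*, 6.52% for *Cd86*, 4.90% for *Icosl*, 1.12% for *Cd40* and 16.0% for *Cd83*, so the NK cell-like shares above include doublets.

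**Figure D3:**
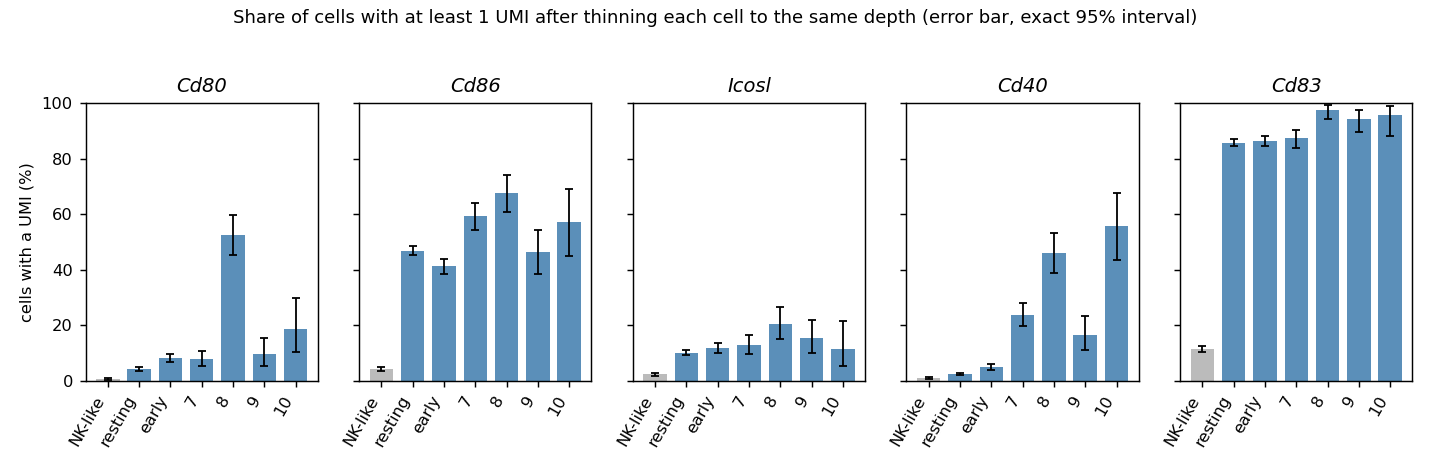
Share of cells (%) with at least 1 UMI of each gene after thinning each cell to 3900 UMIs, for NK cell-like cells (grey) and for resting cDC1s, early cDC1s and clusters 7 to 10 (blue), with exact 95% intervals that cover counting error only. *Cd80* reaches 52.5% in cluster 8 and *Cd40* 55.7% in cluster 10, against 0.597% and 0.737% in NK cell-like cells.

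The members were also counted together in single thinned cells. A resting cell held UMIs of 1.49 of the 5 members on average, an early cell 1.52, and cells of clusters 7, 8, 9 and 10 held 1.91, 2.84, 1.82 and 2.39. In cluster 8, 21.7% of cells held 4 members and 5.56% held all 5, whereas 0.265% of resting cells held 4 and 0% all 5. In cluster 10, 7.14% held 4 and 1.43% held all 5. Within cluster 8, *Cd40* was seen in 50% of the 104 thinned cells with *Cd80* and in 41.5% of the other cells, and *Cd86* in 73.1% and 61.7%. In cluster 10 only 13 thinned cells held *Cd80*, too few to compare. Before thinning, the same shares in cluster 8 were 71.9% and 42.4% for *Cd40* and 81.1% and 54.2% for *Cd86*, a wider gap than after it. Thinning changed the depth and also left out 57 of 255 cells, and the 2 were not separated.

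How alike the members were was described by Pearson's r of log2(CPM + 1) over 33 sums, 11 clusters in each of 3 libraries, in which the points share libraries and differ in depth. Among the members *Cd86* and *Cd40* were the most alike (0.806), followed by *Cd80* and *Cd40* (0.780), *Cd80* and *Cd86* (0.751) and *Cd80* and *Cd83* (0.729). *Icosl* was the least like the rest, with 0.267 to *Cd86*, 0.353 to *Cd40*, 0.502 to *Cd83* and 0.507 to *Cd80*. Of the 8010 genes searched, those most like *Cd80* were *Bhlhe40* (0.910), *Nfkbie* (0.902), *Glipr2* (0.894), *Il2rg* (0.893) and *Stat4* (0.888). Those most like *Cd86* were *Tmem131* (0.933), *Stxbp3* (0.911), *Abtb2* (0.903), *Actb* (0.900) and *Kpna3* (0.887). *Cd40* was followed most closely by *Cxcl9* (0.939), *Ccnd2* (0.914), *Casp4* (0.893), *Oasl1* (0.891) and *Mxd1* (0.888), and *Cd83* by *Gpr132* (0.910), *Rel* (0.902), *Rela* (0.898), *Slc6a6* (0.896) and *Nfkb2* (0.891). For *Icosl* the closest genes reached less, with *Dhx57* (0.741), *Washc2* (0.720), *Clec2i* (0.695), *Bclaf3* (0.692) and *Scyl2* (0.684). The 5 lists had no gene in common. With log2(CPM + 10) in place of log2(CPM + 1), 5 of the 5 genes remained for *Icosl* and *Cd83*, 4 for *Cd80* and *Cd86* and 3 for *Cd40*.

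The genotypes could be set side by side but not tested, since each is 1 library, and the exact 95% intervals of the ratios cover counting error only. Over all cDC1s *Cd80* was counted at 21.9, 27.2 and 18.7 CPM and *Cd40* at 25.6, 32.0 and 23.1 CPM. Both were highest in the sGSN-/- library and lowest in the sGSN-/-Clec9a-/- library. The log2 ratio of sGSN-/- to WT was 0.31 (0.15 to 0.47) for *Cd80* and 0.32 (0.18 to 0.46) for *Cd40*, and that of sGSN-/-Clec9a-/- to sGSN-/- was -0.54 (-0.73 to -0.36) and -0.47 (-0.63 to -0.30). The sGSN-/- library also held the most cluster 8 cells, 114 against 84 in WT and 57 in sGSN-/-Clec9a-/-. With clusters 0 to 10 weighted equally in each library, the ratios of sGSN-/- to WT became -0.033 for *Cd80* and -0.086 for *Cd40*, in the other direction, and those of sGSN-/-Clec9a-/- to sGSN-/- shrank to -0.18 and -0.082. *Cd86* (184, 189 and 174 CPM), *Icosl* (29.2, 30.6 and 29.0 CPM) and *Cd83* (784, 772 and 774 CPM) differed less. The log2 ratio of sGSN-/- to WT was 0.04 (-0.016 to 0.10) for *Cd86*, 0.071 (-0.07 to 0.21) for *Icosl* and -0.023 (-0.05 to 0.0048) for *Cd83*, and each of these intervals included 0. From sGSN-/- to sGSN-/-Clec9a-/- only *Cd86* among these 3 had an interval apart from 0, at -0.12 (-0.19 to -0.06), while *Icosl* had -0.079 (-0.24 to 0.078) and *Cd83* 0.0035 (-0.027 to 0.034).

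Within clusters some libraries stood apart beyond counting error. *Cd40* in cluster 8 was 329 CPM (295 to 366) in WT, 195 CPM (172 to 221) in sGSN-/- and 206 CPM (168 to 249) in sGSN-/-Clec9a-/-, with exact Poisson 95% intervals, so the WT library was higher. In the same cells *Icosl* was 36.8 CPM (26.1 to 50.5), 66.9 CPM (53.4 to 82.7) and 48.5 CPM (31.4 to 71.6), and here the sGSN-/- library was the highest, with an interval apart from that of WT. *Cd83* in cluster 10 was 1297 CPM (1167 to 1437), 1241 CPM (1119.7 to 1371) and 773 CPM (677 to 879.6), the sGSN-/-Clec9a-/- library being the lowest. These libraries also differed in markers of other cells. The 7 monocyte or macrophage markers were all detected in cluster 8 and summed there to 392, 77.9 and 83.4 CPM, highest where *Cd40* was highest, and to 341, 325 and 322 CPM at rest, where *Ccr2* alone had 305 ± 6.90 CPM. In the WT library of cluster 8 *C1qa* (134 CPM) and *C1qb* (114 CPM) led, ahead of *Ccr2* (91.1 CPM), whereas in the sGSN-/- and sGSN-/-Clec9a-/- libraries *C1qa* was at 5.51 and 5.82 CPM and *C1qb* at 9.45 and 27.2 CPM. The 6 cDC2 markers were also highest in the WT library of cluster 8, at 97.9, 27.6 and 67.9 CPM summed. At rest they summed to 28.1, 25.7 and 25.2 CPM. The 6 NK cell markers, all detected and led by *Gzma*, summed to 19.4, 134 and 38.8 CPM in cluster 8, against 15.7, 39.4 and 24.4 CPM at rest. The sums were highest in the sGSN-/- library at rest and in each cluster from 7 to 10. In that library they were 38.8, 37.9 and 54.8 CPM in clusters 7, 9 and 10, beside 134 CPM in cluster 8. *Icosl* in cluster 8 was also highest in the sGSN-/- library. The part of these markers in the results was not tested. The activated cDC markers summed to 7306, 6218 and 4044 CPM in cluster 8, led over the libraries together by *Ccr7*, against 14.0, 11.7 and 10.8 CPM at rest. In the sGSN-/-Clec9a-/- library *Ccl22* (1244 CPM) was above *Ccr7* (1166 CPM).

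Markers of other cell types were read in each activated cluster beside the costimulatory genes, and their part in the results was not tested. In cluster 10 the 6 cDC2 markers were all detected and summed to 138, 509 and 107 CPM, with *Cd209a* the most abundant and the sGSN-/- library the highest, against 28.1, 25.7 and 25.2 CPM at rest. The activated cDC markers summed there to 524, 51.6 and 73.6 CPM, with *Fscn1* and *Cacnb3* at 0. The WT library, in which *Cd80* was also highest, was the highest, led by *Ccl22* (397 CPM), and *Ccr7* led in the sGSN-/-Clec9a-/- library (70.3 CPM). In cluster 9, 6 of the 7 activated cDC markers were detected, with *Fscn1* at 0, and they summed to 45.1, 61.3 and 35.5 CPM. The 5 T cell markers summed to 3.88, 14.96 and 1.94 CPM in cluster 8, with *Cd3g* and *Trac* at 6 UMIs each, all those of *Cd3g* in the sGSN-/- library, and 3 of 5 were detected in cluster 10, with *Cd3d* and *Cd3g* at 0. Of the 6 plasmacytoid DC markers *Bst2* was the most abundant in each activated cluster, and in clusters 7 and 10 *Ly6d*, *Klk1* and *Cox6a2* were at 0. The sum was 796, 839 and 844 CPM for cluster 7, with *Bst2* at 821 ± 25.4 CPM, and 391, 517 and 309 CPM in cluster 8, with *Bst2* at 400.1 ± 105 CPM. The 5 proliferation markers were led by *Mki67* and reached 77.5, 84.2 and 15.5 CPM summed over cluster 8 and 69.1, 59.5 and 56.2 CPM over cluster 9, against 23.8, 28.5 and 18.1 CPM at rest. Of the 5 tumour or fibroblast markers 4 were detected in cluster 8, led by *Col1a2*, at 5.81, 3.94 and 7.76 CPM, with *Pdgfrb* at 0. Of the 4 neutrophil markers only *Csf3r* was detected in clusters 7, 8 and 9, and none in cluster 10.

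The same genes were read in the cells outside the deposited cDC1s, in classes rebuilt from all barcodes and named from markers, to place the levels of the cDC1 clusters. The rebuilt classes may differ in their cells from the regions named by the authors, so a difference from the study may come from the rebuilt names. Of the cDC1-like clusters 1 (1047 cells) was led by histone genes. Another (911 cells, 439 of them deposited cDC1s) was led by *Ifit3*, *Cxcl9* and *Ifit3b*. These leading genes are not cDC1 markers, and the cDC1-like levels below include both clusters. No level is given for the clusters with cDC2 markers, since 1 of them (1785 cells) was led by *Retnla*, *Lpl* and *Ear2*, which are not cDC2 markers. Among the classes given here, so with the clusters with cDC2 markers left out of the order, *Cd80* was highest in activated cDC-like cells (127 ± 10.3 CPM, 213 cells). Monocyte or macrophage-like cells came next among them (58.1 ± 2.81 CPM, 3517 cells). *Cd80* was lower in pre-cDC-like cells (40.3 ± 3.84 CPM, 2715 cells), and lower again in cDC1-like cells outside the deposited clusters (19.6 ± 2.23 CPM, 2325 cells). In cDC1 cluster 8 each library was above those of the classes named here. *Cd86* was at 311 ± 6.59 CPM in activated cDC-like cells, 186 ± 3.69 CPM in monocyte or macrophage-like cells and 18.8 ± 3.48 CPM in NK cell-like cells. *Icosl* had its highest level in pre-cDC-like cells (54.8 ± 5.68 CPM), where the libraries overlapped with those of activated cDC-like cells (47.1 ± 10.9 CPM), and it was lower in monocyte or macrophage-like cells (19.4 ± 1.86 CPM). *Cd40* was at 158 ± 25.6 CPM in activated cDC-like cells and 54.0 ± 5.94 CPM in pre-cDC-like cells, and *Cd83* at 929 ± 129 CPM and 404 ± 35.4 CPM. Some class levels moved with the clustering, and *Cd40* in cDC1-like cells was 31.1 ± 5.83 CPM with the Leiden resolution set to 1 and 10.9 CPM with 0.5.

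Other genes of the same pathways were counted from 6 lists. Of 6 further members of the B7 family *Hhla2* was not analysed here, 3 could be tested, and *Cd276* and *Vtcn1* (2 and 0 UMIs over all cDC1s) could not. *Cd274*, which encodes the PD-1 ligand PD-L1, was higher in clusters 7, 8 and 10, and *Vsir*, which encodes VISTA, was lower in clusters 7 and 8 and in early cDC1s. Since the study recognised activated cells by *Cd274* too, its calls in activated clusters are not read as support. *Pdcd1lg2*, which encodes the other PD-1 ligand, passed the filter on low counts only through clusters 8 and 10, in which it is high, so its calls are not counted and its levels are given with no test. The shares of all genes higher and lower, for *Cd274* and *Vsir* and for the lists that follow, were 25.7% and 24.0% in cluster 8, 11.8% and 6.10% in cluster 7, 8.53% and 6.53% in cluster 10, 3.99% and 1.32% in cluster 9, and 16.1% and 18.1% in early cDC1s. *Cd274* was at 307 ± 76.2 CPM against 8.84 ± 0.336 CPM, log2 fold change 5.36, SE 0.153, adjusted p = 7.5e-20 in cluster 8 and 262 ± 40.0 CPM against 8.84 ± 0.336 CPM, log2 fold change 4.88, SE 0.205, adjusted p = 2.2e-15 in cluster 10, with 3 of 3 libraries higher each time, and *Vsir* at 24.7 ± 7.36 CPM against 50.6 ± 0.791 CPM, log2 fold change -0.96, SE 0.240, adjusted p = 0.0017 in cluster 8, with 0 of 3 higher (edgeR's quasi-likelihood test with adjustment after Benjamini-Hochberg). At rest *Pdcd1lg2* was at 1.54 ± 0.502 CPM, beside 95.8 ± 39.6 CPM for cluster 8, while cluster 10 held 60.2 ± 30.05 CPM and cluster 7 only 3.96 ± 1.53 CPM.

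Of the 7 TNF superfamily ligands that costimulate T cells, 3 could be tested (*Tnfsf4*, *Tnfsf9* and *Cd70*). *Cd70* and *Tnfsf4* were at or near 0 at rest, in clusters 7, 9 and 10 and in early cDC1s and passed the filter on low counts through cluster 8, so their calls there (2 of the 3 higher) are not set against the background. *Tnfsf9* was higher in clusters 8 and 9 and in early cDC1s and did not pass in clusters 7 and 10, and *Tnfsf4* was also called in cluster 7, at 0.778 ± 0.992 CPM. *Tnfsf9*, which encodes 4-1BB ligand, was at 103 ± 9.88 CPM against 14.8 ± 3.68 CPM, log2 fold change 2.98, SE 0.220, adjusted p = 1.1e-11 in cluster 8 and 133 ± 3.39 CPM against 14.8 ± 3.68 CPM, log2 fold change 3.15, SE 0.219, adjusted p = 4.9e-11 in cluster 9, each with 3 of 3 libraries higher (edgeR's quasi-likelihood test with adjustment after Benjamini-Hochberg), while *Tnfsf4* had 14.98 ± 4.82 CPM in cluster 8 and 0.0565 ± 0.0499 CPM at rest, and *Cd70* had 42.4 ± 19.96 CPM in cluster 8 and no UMI in resting cDC1s.

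Of 14 genes of CD40 signalling, which encode TRAF adaptors, NF-kB subunits and their regulators, 14 were higher in cluster 8, 10 in cluster 10, 9 in cluster 9, 2 in cluster 7 and 1 in early cDC1s, where 1 was lower. Of all genes 25.7%, 8.53%, 3.99%, 11.8% and 16.1% were higher in these comparisons, so the counts of cluster 7 and early cDC1s were near or below the background. In the same order the median log2 fold change was 2.32, 1.22, 1.10, 0.21 and -0.035, against -0.054, -0.035, -0.023, -0.019 and -0.013 over all genes tested. In cluster 8 *Relb*, a subunit of non-canonical NF-kB, was at 469 ± 121 CPM against 23.9 ± 0.994 CPM, log2 fold change 4.51, SE 0.151, adjusted p = 9.6e-19, and *Traf1*, an adaptor of CD40, at 919 ± 60.5 CPM against 88.0 ± 3.28 CPM, log2 fold change 3.58, SE 0.107, adjusted p = 1.3e-19, both with 3 of 3 libraries higher (edgeR's quasi-likelihood test with adjustment after Benjamini-Hochberg). In the same edgeR test (quasi-likelihood, Benjamini-Hochberg adjusted) the smallest changes that passed in cluster 8 were those of *Rela* (75.1 ± 6.36 CPM against 38.4 ± 0.492 CPM, log2 fold change 1.15, SE 0.116, adjusted p = 5.3e-09, 3 of 3 libraries higher) and *Traf5* (27.4 ± 10.3 CPM against 18.9 ± 1.57 CPM, log2 fold change 0.85, SE 0.212, adjusted p = 0.0016, 2 of 3). In cluster 9 the inhibitors of NF-kB led, with *Nfkbia* at 1919 ± 245 CPM against 177 ± 14.2 CPM, log2 fold change 3.45, SE 0.114, adjusted p = 8.4e-18 and *Tnfaip3* at 403 ± 49.6 CPM against 41.4 ± 5.75 CPM, log2 fold change 3.28, SE 0.144, adjusted p = 4.4e-15, by edgeR's quasi-likelihood test with adjustment after Benjamini-Hochberg and in 3 of 3 libraries. The study described cluster 9 by *Tnfaip3* among other genes of these cells. Its call there is therefore not read as support, although the count of 9 genes includes it. In cluster 10 *Relb* was at 87.8 ± 30.2 CPM against 23.9 ± 0.994 CPM, log2 fold change 1.87, SE 0.264, adjusted p = 9.3e-06 and *Traf1* at 311 ± 4.34 CPM against 88.0 ± 3.28 CPM, log2 fold change 1.80, SE 0.125, adjusted p = 3.3e-11, also in 3 of 3 libraries (edgeR's quasi-likelihood test, Benjamini-Hochberg adjusted). In cluster 7 only *Traf1* (167 ± 20.7 CPM against 88.0 ± 3.28 CPM, log2 fold change 1.03, SE 0.104, adjusted p = 1.6e-08) and *Nfkbia* (233 ± 6.55 CPM against 177 ± 14.2 CPM, log2 fold change 0.50, SE 0.108, adjusted p = 0.0012) passed edgeR's quasi-likelihood test (Benjamini-Hochberg adjusted), in 3 of 3 libraries.

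Of 10 adhesion and SLAM molecules that take part in contact with T cells, 5 were higher and 2 lower in cluster 8, 2 and 1 in cluster 10, 2 and 0 in cluster 9, 1 and 1 in cluster 7, and 2 and 4 in early cDC1s. With 25.7% of all genes higher and 24.0% lower in cluster 8, 11.8% higher in cluster 7 and 16.1% higher in early cDC1s, the 2 lower in cluster 8 and the counts higher in cluster 7 and early cDC1s were near the background. Of the 5 higher in cluster 8, *Nectin2* and *Slamf1* were near 0 at rest and passed the filter on low counts only through clusters 8 and 10, and *Cd84*, 1 of the 2 higher in early cDC1s, passed it with low counts at rest, so their calls are not read as support and no test of them is given. With *Nectin2* and *Slamf1* set aside, the count higher in cluster 8 was near the background as well. *Icam1*, the ligand of LFA-1, was at 563 ± 23.3 CPM against 81.7 ± 7.71 CPM, log2 fold change 2.80, SE 0.147, adjusted p = 2.2e-13 in cluster 9 and 194 ± 76.3 CPM against 81.7 ± 7.71 CPM, log2 fold change 1.23, SE 0.194, adjusted p = 4.3e-05 in cluster 10, in 3 of 3 libraries each (edgeR's quasi-likelihood test with adjustment after Benjamini-Hochberg). It was lower in early cDC1s, at 55.3 ± 4.49 CPM against 81.7 ± 7.71 CPM, log2 fold change -0.57, SE 0.143, adjusted p = 0.0031 by edgeR's quasi-likelihood test (Benjamini-Hochberg adjusted), with 0 of 3 libraries higher. In cluster 8 *Nectin2* was at 12.2 ± 5.60 CPM against 0.228 ± 0.149 CPM and *Slamf1* at 9.09 ± 1.05 CPM against 0.138 ± 0.121 CPM. *Pvr*, *Icam1* and *Sema4a* were also higher in cluster 8, in 3 of 3 libraries each. Their log2 fold changes were 1.70 (adjusted p = 3.9e-12), 1.64 (adjusted p = 1.1e-09) and 0.74 (adjusted p = 4.5e-06) by edgeR's quasi-likelihood test (Benjamini-Hochberg adjusted). There *Cd24a*, at 196 ± 35.6 CPM against 620.2 ± 23.7 CPM, log2 fold change -1.50, SE 0.142, adjusted p = 1.4e-09, and *Cd48*, at 97.5 ± 11.8 CPM against 249.6 ± 3.50 CPM, log2 fold change -1.18, SE 0.108, adjusted p = 8.2e-10, were higher in 0 of 3 (edgeR's quasi-likelihood test, Benjamini-Hochberg adjusted). Of the ubiquitin ligases that remove CD86 and MHC class II from the surface, *March1* could be tested and *March8* (38 UMIs over all cDC1s) could not. *March1* fell in cluster 8 (22.4 ± 3.36 CPM against 175 ± 14.2 CPM, log2 fold change -2.77, SE 0.159, adjusted p = 5.8e-14), in cluster 10 (99.8 ± 17.2 CPM against 175 ± 14.2 CPM, log2 fold change -0.82, SE 0.155, adjusted p = 0.0004) and in early cDC1s (118 ± 10.7 CPM against 175 ± 14.2 CPM, log2 fold change -0.56, SE 0.095, adjusted p = 4.9e-05), and was higher in 0 of 3 libraries each time (edgeR's quasi-likelihood test with adjustment after Benjamini-Hochberg). Of 4 receptors of T cells that bind these ligands, *Ctla4* could be tested, and *Cd28*, *Icos* and *Cd40lg* had 16, 24 and 2 UMIs over all cDC1s. *Ctla4* was at 9.86 ± 4.96 CPM against 28.7 ± 4.97 CPM, log2 fold change -1.55, SE 0.449, adjusted p = 0.0055 in cluster 8 and 9.73 ± 7.27 CPM against 28.7 ± 4.97 CPM, log2 fold change -1.69, SE 0.477, adjusted p = 0.035 in cluster 9, with 0 of 3 libraries higher (edgeR's quasi-likelihood test, Benjamini-Hochberg adjusted).

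Promoter sequences of RefSeq (GRCm38.p6), 250 bases before to 50 after a gene start, matched 2 of the 5 members, *Cd80* and *Icosl*, and both are shown since both genes rose in cluster 8. *Cd86*, *Cd40* and *Cd83* are only named. The windows were searched on both strands for GAAANNGAA (the letters of an interferon-stimulated response element), TTCNNNGAA (GAS), TGANTCA (AP-1) and the kappaB motif of NF-kB, which are held by 8.56%, 8.30%, 7.81% and 8.46% of 32851 promoters of the same length. The *Cd80* window (chr16:38458683-38458982, plus strand) overlaps exon 1 of transcript Cd80-201 and exon 2 of Cd80-202, begins 3122 bases after the annotated start of the gene, and held 1 match, to AP-1 at bases 209 to 215, a pattern that is the same on both strands. The *Icosl* window (chr10:78069118-78069417, plus strand) overlaps exon 1 of Icosl-201 and of Icosl-202, and held 1 kappaB match on the minus strand at bases 140 to 149. GC content was 49.7% with 3 CpG in the first and 68.0% with 26 CpG in the second, against medians of 52.7% and 7 over all promoters. Matches are in capitals below, and a match is a description of the letters, not of binding.
Cd80: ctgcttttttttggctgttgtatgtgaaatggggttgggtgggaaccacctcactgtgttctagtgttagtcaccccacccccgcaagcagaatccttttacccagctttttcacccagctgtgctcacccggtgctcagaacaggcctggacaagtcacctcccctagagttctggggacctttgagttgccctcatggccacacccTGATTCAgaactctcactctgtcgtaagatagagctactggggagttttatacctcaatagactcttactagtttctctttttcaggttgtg
Icosl: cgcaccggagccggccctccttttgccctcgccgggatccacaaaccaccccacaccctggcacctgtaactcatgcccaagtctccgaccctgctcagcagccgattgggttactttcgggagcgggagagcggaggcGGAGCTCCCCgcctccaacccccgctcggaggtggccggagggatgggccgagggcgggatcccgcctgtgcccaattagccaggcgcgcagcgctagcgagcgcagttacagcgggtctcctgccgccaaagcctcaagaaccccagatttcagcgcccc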

How the data were processed

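The deposited counts are raw UMI counts per gene and barcode, which the authors made with Cell Ranger (6.0.1 per the file headers) on mm10 (GRCm38), 1 library per genotype. The authors then used Seurat (given as 4.0.0 in the submitters' processing notes, while the study's methods give that number for R) to drop cells under 200 genes or with mitochondrial reads more than 2 SD above the mean share, and to integrate and cluster the cDC1s, and the deposited clusters were used as given. The deposited UMI totals equalled the matrix for 4559 of 5806 cDC1s.

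The counts were summed here per library and group of clusters (18 sums). CPM were computed from the deposited counts. Comparisons used edgeR 4.0.16 (quasi-likelihood test, TMM factors, filterByExpr) in R 4.3.3, with Benjamini-Hochberg adjustment over 8536 genes and a threshold of 0.05, in 1 fit over the 6 groups with libraries as replicates. The SE was taken as the size of the log2 fold change over the root of its F statistic. The steps were tested on simulated data. Alternatives were DESeq2 1.42.0, no TMM factors, no filter, the library as a replicate block, each library left out, only the 2 groups compared, resting cDC1s without cluster 6, thinned cells, doublets left out, and cluster labels assigned by the nearest profile without the members, which kept 4534 of 5806 labels (78.1%). These profiles were means over the authors' clusters in the other libraries, so the labels still depend on how those clusters had been called. Cells of 1 library were pooled from the same animals, which pairs the groups by library, and the deviations of these groups from their means had correlations from -0.0025 to 0.38 over 24 values.

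Other classes were rebuilt from 28855 of 30209 barcodes (at least 200 genes, a mitochondrial share of up to 16.7%) in Python 3.11.15 (scanpy 1.11.5, leidenalg 0.10.2), using 2000 variable genes, 50 principal components, 20 neighbours and a resolution of 1, and were named from markers. Doublets were scored with Scrublet's method, whose automatic threshold did not work in 2 libraries, so as an alternative each library was analysed without its top 6% of barcodes by score. Genes named from each list were up to 2 with the largest and up to 2 with the smallest log2 fold change among those that passed, and the 5 most similar genes were those with the highest Pearson's r. *Cd276*, *Vtcn1* and other genes named for not being tested fall outside this rule and were chosen after their values were seen. The members and lists were chosen with earlier results of these data known. The result of 1 marker list of another cell type is not reported here.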

Additional observations from a re-analysis of the deposited data

Results flagged for a closer look

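In 7 of the comparisons of a member, the library of 1 genotype moved one way and that of another the opposite way, as log2 ratios of CPM. Each genotype is 1 library, and these differences were not tested. *Cd86* in cluster 9 against resting cDC1s was 0.58 in sGSN-/- and -0.066 in sGSN-/-Clec9a-/-. *Cd40* in cluster 8 against cluster 10 was 0.66 in WT and -0.21 in sGSN-/-Clec9a-/-. *Cd83* in cluster 10 against cluster 7 was 0.66 in sGSN-/- and -0.021 in sGSN-/-Clec9a-/-, and in early against resting cDC1s 0.099 in WT and -0.045 in sGSN-/-Clec9a-/-. The intervals for counting error did not overlap in these 4 cases.

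The other 3 cases concern *Icosl*, and their intervals for counting error overlapped. Against resting cDC1s, *Icosl* in cluster 10 was 0.39 in sGSN-/-Clec9a-/- and -0.058 in sGSN-/-. It was 0.89 in sGSN-/- and -0.13 in WT for cluster 8 against cluster 9, and 0.018 in sGSN-/-Clec9a-/- and -0.11 in WT for cluster 10 against cluster 7.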

How the results depend on the processing

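The libraries are 1 per genotype, so SDs and tests over them hold the genotype differences too, and no genotype effect could be tested. Cluster 10 had 891318 UMIs, so changes of low genes there are the least certain. Of 465 alternative values for the 40 log2 fold changes of members, 431 kept direction and side of the threshold, 16 kept the direction and no longer passed, 8 came to pass and 10 changed sign. Of 186 alternative counts of called genes, 138 were within 1.5 times the reported count and 48 were not. Of 20 alternative genotype ratios 15 moved by less than their counting error, of 45 shares of cells 44 moved with thinning, of 85 class levels 28 moved by more than 1 SD, and for 1 of 5 members fewer than 4 of the 5 most similar genes were shared with another pseudocount. The cause was not tested where values changed, except that fewer UMIs or fewer libraries are part of thinning and of leaving a library out.

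Fitting the library as a replicate block, which pairs the groups within each pool of mice, changed no call of a member and moved no count of called genes by over 1.5 times (2245 genes higher in cluster 8 with the block against 2191 without it).

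With cells thinned to 3900 UMIs, 555 genes were higher and 226 lower in cluster 7 (1004 and 521 unthinned), 1265 and 1057 in cluster 8 (2191 and 2051), 176 and 38 in cluster 9 (341 and 113) and 320 and 248 in cluster 10 (728 and 557), and 878 were lower in early cDC1s (1542). Between clusters the counts were 753 and 481 for 8 against 10 (1342 and 1066), 923 and 722 for 8 against 9 (1702 and 1451) and 131 and 227 for 10 against 7 (322 and 517). Thinned log2 fold changes were 1.16 for *Cd80* in cluster 9, 0.58 for *Cd86* and -0.0089 for *Icosl* in cluster 10, 0.24 for *Icosl* in early cDC1s, 1.39 and 0.85 for *Icosl* in cluster 8 against 10 and 9, and 1.19 for *Cd80* and -0.14 for *Cd86* in cluster 10 against 7.

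Without TMM factors 928 genes were lower in cluster 7 and 1612 in cluster 8 against 10, and the log2 fold changes were 0.52 for *Icosl* and 0.29 for *Cd83* in cluster 8 against 9 and 0.44 for *Cd83* in cluster 10 against 7. With DESeq2, 525 genes were higher in cluster 10 than in cluster 7, and *Cd83* was at 0.36. With labels assigned without the members, 880 genes were lower in cluster 7 and 174 in cluster 9, and the log2 fold changes were 0.41 for *Cd86* and 0.64 for *Icosl* in cluster 9, 0.70 for *Cd40* in cluster 8 against 10, and -0.017 for *Cd86* and 0.14 for *Icosl* in cluster 10 against 7. With only the 2 groups in the fit, *Cd83* was at 0.28 in cluster 7, *Icosl* at 0.67 in cluster 8 against 9, and 796 genes were higher and 683 lower in cluster 8 against 10. With no filter on low counts, 174 genes were lower in cluster 9, and *Icosl* in cluster 10 was at -0.0053, *Cd83* in early cDC1s at -0.0039 and *Cd86* in cluster 10 against 7 at -0.0032. Without cluster 6 in the resting group 181 genes were lower in cluster 9. With the clusters weighted equally, the log2 ratio of sGSN-/- to WT was -0.033 for *Cd80* and -0.086 for *Cd40*.

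Leaving out 1 library in turn gave 172 to 354 genes lower in cluster 7, 1307 to 1818 lower in cluster 8, 184 to 287 higher and 27 to 65 lower in cluster 9, 467 to 536 higher and 258 to 339 lower in cluster 10, and 680 to 1107 higher and 825 to 1282 lower in early cDC1s. It gave 678 to 789 lower in cluster 8 against 10, 878 to 1299 lower in cluster 8 against 9, and 166 to 288 higher and 238 to 384 lower in cluster 10 against 7. The log2 fold change ranged from 0.73 to 0.79 for *Cd80* and 0.23 to 0.32 for *Cd83* in cluster 7, from 1.13 to 1.39 for *Cd80* and -0.026 to 0.31 for *Cd86* in cluster 9, from -0.055 to 0.21 for *Icosl* and 0.44 to 0.82 for *Cd83* in cluster 10, and from 0.33 to 0.52 for *Icosl* and -0.013 to 0.055 for *Cd83* in early cDC1s. It ranged from 0.69 to 1.34 for *Icosl* in cluster 8 against 10, from 0.32 to 1.08 for *Icosl* in cluster 8 against 9, and from 0.19 to 0.49 for *Cd83* in cluster 10 against 7.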
